A study of Mus musculus with 2 samples.

Results

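AMPA receptors are the channels that carry most fast excitatory current in the brain, and 10 of their genes were described here across the cell types of the mouse prefrontal cortex: the pore-forming subunits Gria1, Gria2, Gria3 and Gria4, and the auxiliary proteins Cacng2, Cacng3, Cacng8, Cnih2, Cnih3 and Shisa9. The genes were taken by symbol from the gene column of the count matrix, and all 10 were found among its 31040 genes. They held 332256 of 66566100 unique molecular identifiers (UMIs, each standing for 1 captured RNA molecule), or 0.499%. The nuclei came from wild-type male C57BL/6 mice aged 2 months. Mice of the METH group had intraperitoneal methamphetamine at 5 mg/kg over 14 days, and mice of the Control group had saline over the same 14 days. Cortex of 3 mice was pooled for the 1 library of each group, so the animals behind single nuclei cannot be told apart. Barcodes end in 1 of 2 numbers that separate the libraries, but which number is METH and which Control is not given in the sources used here. METH was therefore not compared with Control, and each gene is given over both libraries and in library 1 and library 2 on its own.

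An AMPA receptor is a tetramer of the subunits GluA1 to GluA4, the products of Gria1 to Gria4. GluA2 sets calcium entry: its RNA is edited by the deaminase ADAR2 (gene Adarb1) at the codon of the pore's Q/R site, glutamine becomes arginine, and receptors that hold the edited subunit let little calcium through. Auxiliary proteins ride on the tetramer. The TARPs (transmembrane AMPA receptor regulatory proteins) stargazin, made from Cacng2, and its relatives made from Cacng3 and Cacng8 take receptors to the synapse and slow their closing. The cornichons from Cnih2 and Cnih3 aid export from the endoplasmic reticulum and also slow the channel, and CKAMP44, from Shisa9, changes how receptors desensitise and recover. Interneurons that make parvalbumin are known for receptors poor in GluA2.

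The Q/R site is shown because editing of the Gria2 RNA there limits calcium entry. The share of Gria2 among the 4 subunit genes is the measure followed below. Each line gives 66 coding bases of the GRCm38 genome (GENCODE M21) on the gene's own strand, 5′ to 3′, with the Q/R codon in capitals.
Gria1: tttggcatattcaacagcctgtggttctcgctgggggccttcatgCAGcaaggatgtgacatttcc
Gria2: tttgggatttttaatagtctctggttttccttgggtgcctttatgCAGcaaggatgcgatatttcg
Gria3: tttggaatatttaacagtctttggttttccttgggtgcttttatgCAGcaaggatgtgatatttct
Gria4: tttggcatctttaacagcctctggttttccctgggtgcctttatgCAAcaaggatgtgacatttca
All 4 genomic codons read glutamine, CAG in Gria1, Gria2 and Gria3 and CAA in Gria4. The Gria2 codon lies at chr3:80706911-80706913 (minus strand) in exon 11 of 16. Those of Gria1 at chr11:57243094-57243096 (plus strand) and Gria3 at chrX:41610265-41610267 (plus strand) also lie in exon 11 of 16, and that of Gria4 at chr9:4464137-4464139 (minus strand) lies in exon 12 of 17. Over these bases Gria3 differs from Gria2 at 7 positions, Gria4 at 9 and Gria1 at 14. The codon is read from the genome, and the UMI counts do not measure its editing.

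The genes span chr11:57011387-57330244 (Gria1), chr3:80681450-80802835 (Gria2), chrX:41400854-41678601 (Gria3) and chr9:4417896-4796234 (Gria4). The TARP genes lie at chr15:77991748-78120028 (Cacng2), chr7:122670492-122769393 (Cacng3) and chr7:3390683-3415648 (Cacng8). Cnih2 lies at chr19:5092868-5098521, Cnih3 at chr1:181352628-181460641 and Shisa9 at chr16:11984113-12270902.

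Of 20766 barcodes, 9890 in library 1 with a median of 2876 UMIs and 10876 in library 2 with a median of 2977, 154 barcode sequences occurred in both. After filters 18002 nuclei remained, in 10 classes named from marker genes and 645 unnamed nuclei. The classes used below were striatal projection neurons (1400 nuclei, 423 in library 1 and 977 in library 2), excitatory neurons (7750), inhibitory neurons (2866), neuroblasts and dividing progenitors (454), oligodendrocyte precursors (361), differentiating oligodendrocytes (111), astrocytes (307, of which 50 in library 1), oligodendrocytes (3063) and microglia (990). Striatal projection neurons belong to the basal ganglia, while the labels name the prefrontal cortex alone. Glial classes were shallow, with medians of 710 UMIs in microglia and 811 in oligodendrocytes against 4428 in excitatory neurons. RNA free in the droplets was a large background: Slc17a7, which marks excitatory neurons, reached 354 CPM (the gene's UMIs over all UMIs of the class, scaled to one common total for every class) in oligodendrocytes against 369 CPM in excitatory neurons. An upper limit of this free RNA is therefore given for members in glia. Intervals are 95% and cover counting error only, and with 1 library per group there is no test.

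Among the subunits, Gria1 and Gria4 were highest in inhibitory neurons, and Gria2 and Gria3 in excitatory neurons, in both libraries. Between the 3 large neuron classes the highest level of a subunit was at most 2.47 times the lowest. Gria1, whose product carries much of the receptor added during synaptic strengthening, stood at 973 and 859 CPM in striatal projection neurons of libraries 1 and 2, at 560 and 604 CPM in excitatory neurons and at 997 and 934 CPM in inhibitory neurons. Both libraries of the excitatory class thus lay below both of the inhibitory class, while the inhibitory and striatal projection ranges overlapped. Over both libraries Gria1 in excitatory neurons was 0.61 times that in inhibitory neurons (0.59 to 0.62). Inhibitory neurons were 1.08 times striatal projection neurons (1.04 to 1.13), a gap smaller than that between the libraries in striatal projection neurons. Striatal projection neurons were 1.53 times excitatory neurons (1.47 to 1.58), with 1.74 in library 1 and 1.42 in library 2.

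Gria2 stood at 2039 and 1849 CPM in striatal projection neurons, 2182 and 2110 CPM in excitatory neurons and 1688 and 1669 CPM in inhibitory neurons. The classes did not overlap between libraries, and excitatory neurons were 1.28 times inhibitory neurons (1.256 to 1.301). Striatal projection neurons lay above inhibitory neurons in both libraries. Between them in the order stood differentiating oligodendrocytes, with 111 nuclei and a wide interval, so that neighbouring pairs did not differ beyond counting error from striatal projection neurons (1900 CPM) down through differentiating oligodendrocytes (1770 CPM), inhibitory neurons (1678 CPM), astrocytes (1668 CPM), neuroblasts (1643 CPM) and oligodendrocyte precursors (1568 CPM).

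Gria3, the X-linked subunit gene, stood at 727 and 806 CPM in striatal projection neurons, 1201 and 1271 CPM in excitatory neurons and 837 and 826 CPM in inhibitory neurons. Excitatory neurons were 1.49 times inhibitory neurons (1.45 to 1.53), with 1.43 in library 1 and 1.54 in library 2, so the gene passed a 1.5-fold rule in library 2 alone. The excitatory range lay above both others. Gria4, known for fast kinetics in interneurons, stood at 461 and 576 CPM in striatal projection neurons, 954 and 1025 CPM in excitatory neurons and 1326 and 1359 CPM in inhibitory neurons. These 3 ranges did not overlap. Striatal projection neurons were not above neuroblasts (551 CPM) in Gria4, and lay below oligodendrocyte precursors (665 CPM).

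**Figure D1:**
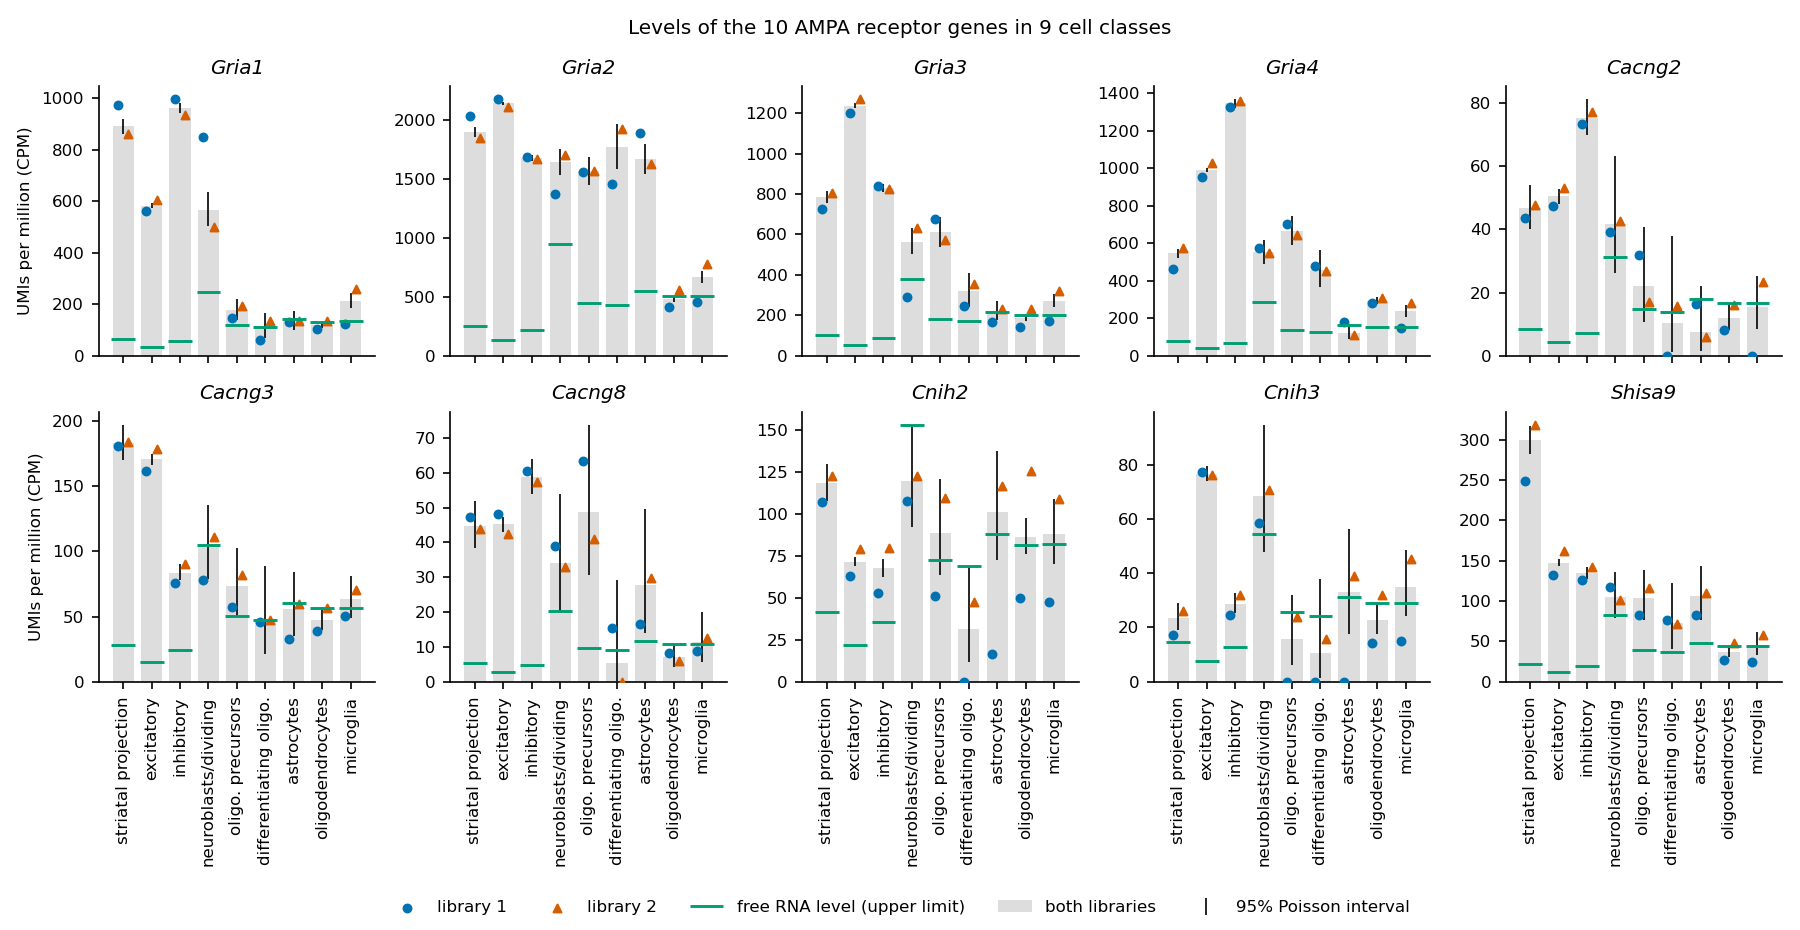
Levels of the 10 genes in 9 cell classes, in CPM on linear axes from 0. Grey bars give both libraries with 95% Poisson intervals, dots library 1, triangles library 2 and green lines the upper limit of free RNA. Gria2 reaches 1568 CPM or more in oligodendrocyte precursors and astrocytes as well as in neurons. Among the 9 classes shown, Cnih3 and Shisa9 each have 1 high neuron class. Unnamed clusters are not shown.

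Among the auxiliary genes, Cnih3 was highest in excitatory neurons, and Shisa9 and Cnih2 were higher in striatal projection than in excitatory neurons. Cnih3 had 17.0 and 25.9 CPM in striatal projection neurons of libraries 1 and 2, 77.4 and 76.0 CPM in excitatory neurons and 24.6 and 32.1 CPM in inhibitory neurons. Striatal projection neurons were 0.31 times excitatory neurons (0.25 to 0.38), and excitatory neurons were 2.67 times inhibitory neurons (2.35 to 3.04). These gaps were wider with the free RNA level subtracted: the log2 ratio of striatal projection over excitatory neurons was then -2.95 instead of -1.70, and that of excitatory over inhibitory neurons 2.10 instead of 1.42. Excitatory neurons thus stood apart from both other classes in each library.

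Cnih2, the other cornichon, showed another order. It had 107 and 123 CPM in striatal projection neurons, 63.1 and 79.0 CPM in excitatory neurons and 52.6 and 79.6 CPM in inhibitory neurons. Its excitatory and inhibitory ranges overlapped (ratio 1.06, 0.97 to 1.15), and striatal projection neurons were 1.66 times excitatory neurons (1.5005 to 1.833). Neuroblasts reached 120 CPM of Cnih2. Their free RNA limit of 153 CPM is their own upper bound, so they could not lie above it and the limit does not decide whether they express Cnih2.

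Shisa9 had 249 and 319 CPM in striatal projection neurons, against 132 and 162 CPM in excitatory neurons, a ratio of 2.03 (1.91 to 2.16). Inhibitory neurons had 126 and 142 CPM, overlapping the excitatory range. The unnamed cluster led by Ntng1 (264 nuclei), which is outside the 9 classes, had 392 and 367 CPM, above striatal projection neurons in both libraries. In nuclei thinned to 1000 UMIs, Shisa9 was found in 22.8% of striatal projection nuclei, 13.3% of excitatory nuclei and 4.61% of oligodendrocytes, where it was not above free RNA. Without thinning these shares were 49.6%, 44.0% and 3.30%, at median depths of 2692.5, 4428 and 811 UMIs.

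Of the TARP genes, Cacng3 had 181 and 184 CPM in striatal projection neurons and 162 and 179 CPM in excitatory neurons, a ratio of 1.07 (0.99 to 1.16) that does not separate them. Inhibitory neurons had 76.0 and 90.1 CPM, and excitatory neurons were 2.04 times this level (1.89 to 2.20). Cacng2 ran the other way, with 47.4 and 53.1 CPM in excitatory neurons and 73.2 and 77.0 CPM in inhibitory neurons (ratio 0.67, 0.61 to 0.73). Cacng8 differed least, with 44.8 CPM in striatal projection neurons, 45.2 CPM in excitatory neurons and 58.8 CPM in inhibitory neurons.

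The make-up of the TARP set therefore shifted between classes. Of the UMIs of Cacng2, Cacng3 and Cacng8 together, Cacng3 held 66.8% in striatal projection neurons (63.9% to 69.6%), 64.1% in excitatory neurons (63.2% to 65.1%) and 38.4% in inhibitory neurons (36.3% to 40.6%). Cacng2 held 16.9%, 18.9% and 34.6% in the same 3 classes. These are shares of UMIs, not adjusted for gene length, and serve to compare classes rather than genes.

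A gene was counted as higher or lower between 2 classes where its CPM ratio passed 1.5-fold in that direction in both libraries, among genes with at least 50 UMIs over both classes. Between excitatory and inhibitory neurons, 2 of 10 members were higher (Cacng3 and Cnih3), and the same rule called 9.74% of 15181 genes. In the other direction 1 of 10, Gria1, was lower, against 12.5% of genes. Between striatal projection and excitatory neurons, 2 of 10 were higher (Cnih2 and Shisa9), against 9.29% of 14813 genes, and 3 of 10 were lower (Gria3, Gria4 and Cnih3), against 13.4%. Cnih2 lost its call when doublets were kept, when free RNA was subtracted or when nuclei were thinned, Gria1 when each nucleus weighed the same, and Gria3 when doublets were kept or the gene minimum was 200 or 1000. These shares of 10 members lie near or somewhat above the background, so the counts alone do not set the members apart. The median log2 ratio of the members was 0.10 for excitatory over inhibitory neurons, beside −0.15 over all genes tested, and −0.06 for striatal projection over excitatory neurons, beside 0.01.

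Excitatory neurons were the highest of the 9 classes, over both libraries and in each, for 3 members (Gria2, Gria3 and Cnih3), as for 3.49% of 15854 genes. Inhibitory neurons were the highest class for 3 (Gria1, Gria4 and Cacng2; 3.55% of genes), and striatal projection neurons for 2 (Cacng3 and Shisa9; 4.38% of genes). The Cacng3 level of striatal projection neurons was not separated from that of excitatory neurons by counting error, and with free RNA subtracted excitatory neurons were its highest class. For Cacng8 and Cnih2 the highest class differed between the libraries. None of the 10 members was highest by this rule in a glial class, where the shares of genes were 3.42% in oligodendrocyte precursors, 4.84% in differentiating oligodendrocytes, 4.67% in oligodendrocytes, 7.03% in astrocytes and 8.51% in microglia, or in neuroblasts, with 5.43%.

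**Figure D2:**
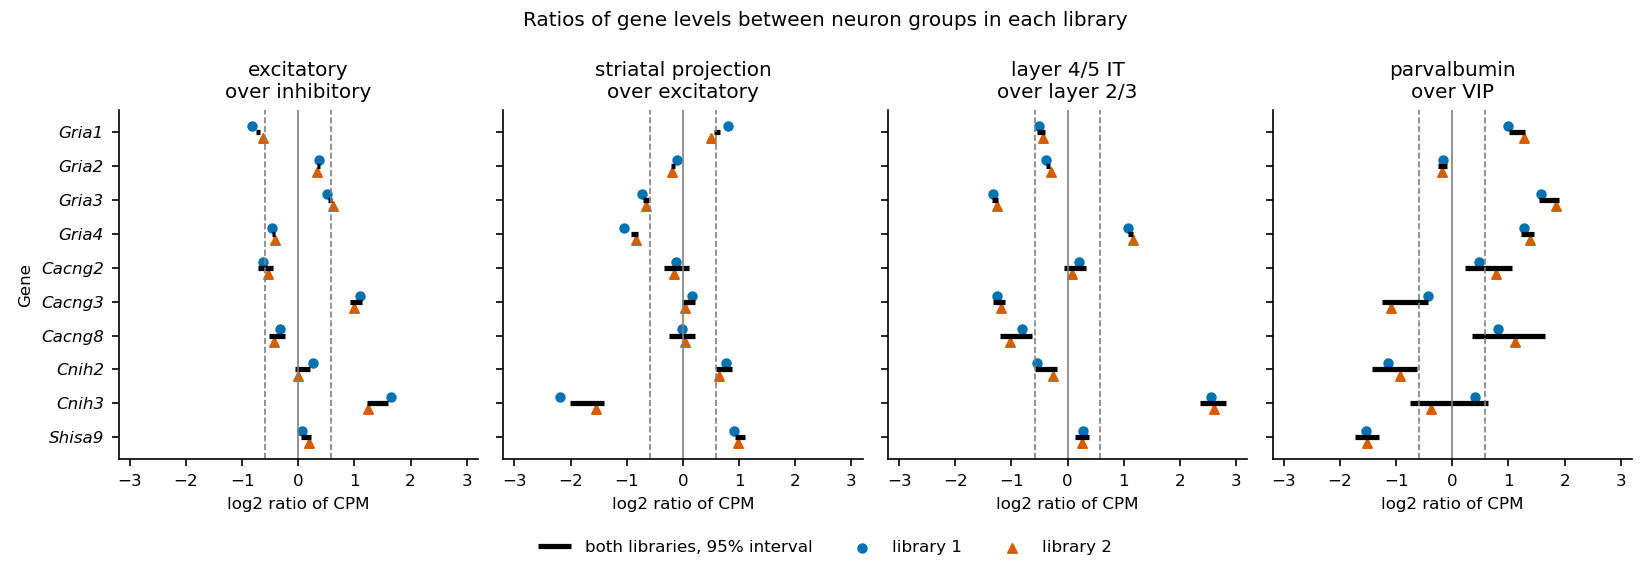
Log2 ratios of CPM for the 10 genes in 4 comparisons of neuron groups, the group named first over the group named second. Black bars are 95% intervals over both libraries, dots library 1, triangles library 2, and dashed lines mark 1.5-fold. Cnih3 has the widest spread, 6.00-fold higher in layer 4/5 than in layer 2/3 and 0.31 times in striatal projection neurons relative to excitatory neurons.

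The Gria2 share of the UMIs of the 4 subunit genes was higher in excitatory than in inhibitory neurons. It was 43.3% in excitatory neurons (43.0% to 43.5%) and 34.8% in inhibitory neurons (34.4% to 35.3%). The difference was 8.44 percentage points (7.93 to 8.94), with 9.75 in library 1 and 7.25 in library 2. Striatal projection neurons had 46.1% (45.4% to 46.9%), which was 2.85 points above excitatory neurons (2.04 to 3.65). The inhibitory class was mixed and included 451 nuclei of an unnamed cluster led by Meis2, 133 in library 1 and 318 in library 2. In that cluster the Gria2 share was 42.7% (41.5% to 43.8%).

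The rest of the composition differed too. Gria1 held 21.59% in striatal projection, 11.76% in excitatory and 19.98% in inhibitory neurons. Gria3 held 19.05%, 24.97% and 17.26% in the same 3 classes, and Gria4 held 13.23%, 19.99% and 27.92%. The summed level of the 4 genes was much alike, at 4119.6 CPM in striatal projection, 4955 CPM in excitatory and 4815 CPM in inhibitory neurons. To set genes against each other, UMIs were divided by the length of each gene, introns included. On that scale Gria2 held 66.5% in excitatory neurons and 59.1% in inhibitory neurons, and was the highest of the 4 genes in every class and neuronal subclass. The scale assumes that UMIs rise with gene length, and whether intronic reads were counted is not given. Gria2 is the shortest gene, at 121 kb against 278 to 378 kb for the others, so the division itself raises its share. Its first place is therefore tied to that assumption.

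Adarb1, which encodes the editing enzyme of the Q/R site, differed less than the share did. It had 76.0 CPM in striatal projection neurons, 88.2 CPM in excitatory neurons and 94.5 CPM in inhibitory neurons. Its 20.2 CPM in astrocytes was under their free RNA limit of 29.9 CPM.

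**Figure D3:**
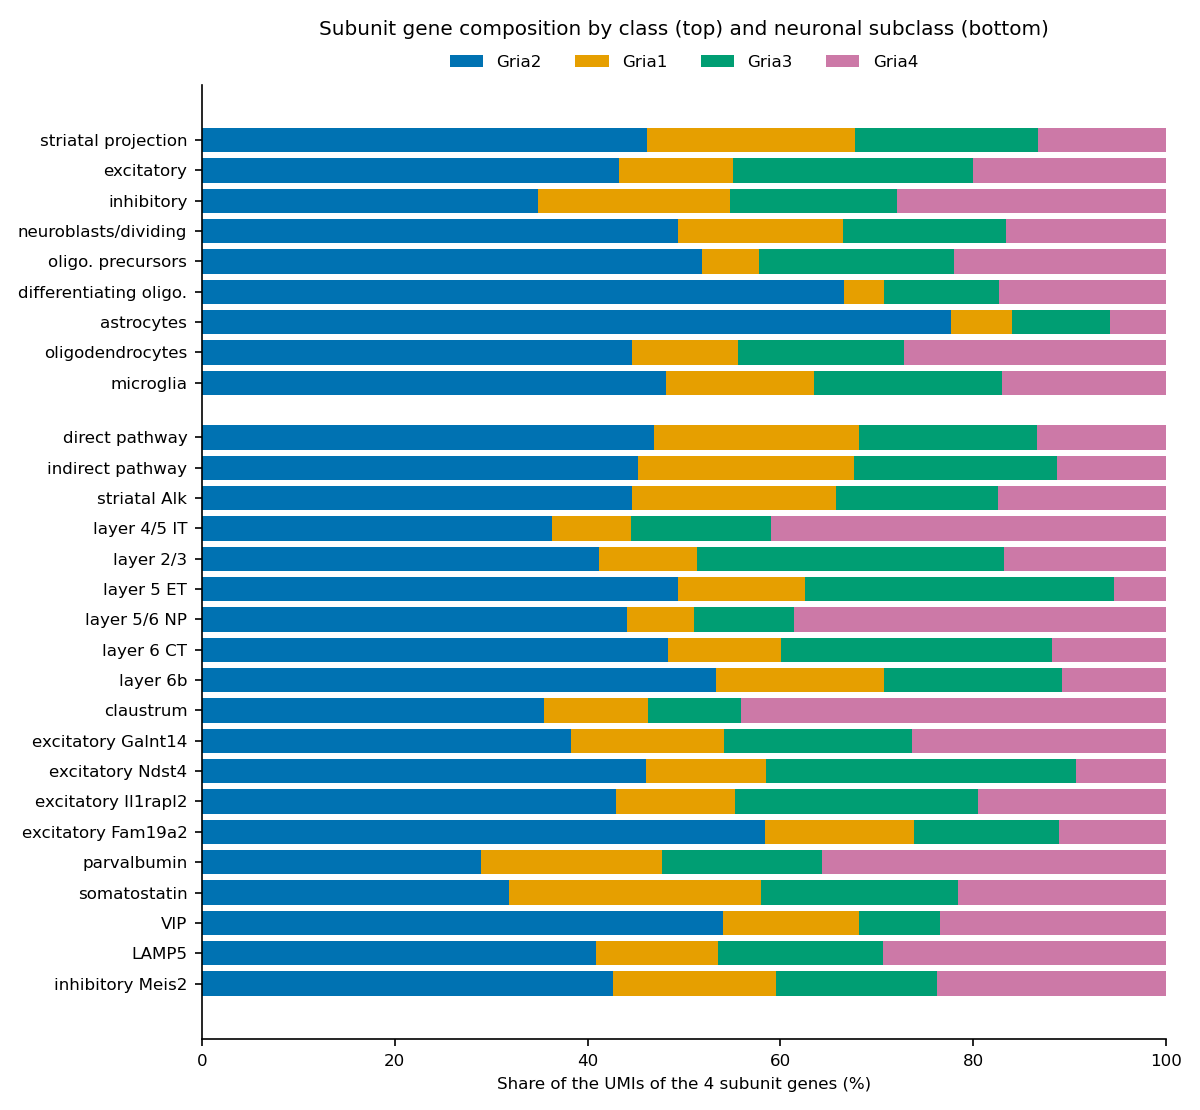
Share of each subunit gene in the UMIs of Gria1, Gria2, Gria3 and Gria4 together, in percent, for 9 classes (upper rows) and 19 neuronal subclasses or unnamed sub-clusters (lower rows). The Gria2 share runs from 28.9% in parvalbumin interneurons to 77.7% in astrocytes, and on this scale, not adjusted for gene length, Gria4 holds the largest share in claustrum, layer 4/5 and parvalbumin neurons.

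Interneuron subclasses differed in the Gria2 share more than the 2 main neuron classes did, and so did the excitatory groups. Those ran from 35.5% in claustrum neurons (181 nuclei) to 58.4% in an unnamed sub-cluster led by Fam19a2 (363 nuclei). Parvalbumin interneurons (866 nuclei) had 28.9% (28.2% to 29.6%) and VIP interneurons (408 nuclei), which mainly inhibit other interneurons, had 54.1% (52.4% to 55.8%). The difference was −25.16 points (−27.02 to −23.30), with −23.54 in library 1 and −26.62 in library 2. Somatostatin interneurons, which target dendrites, had 31.9%, and LAMP5 interneurons had 40.9%.

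The level of Gria2 itself moved little between these groups: it had 1644 and 1549 CPM in parvalbumin and 1841 and 1763 CPM in VIP interneurons, a ratio of 0.89 (0.84 to 0.94). The other subunits differed more. Gria3 had 903 and 930 CPM in parvalbumin and 302 and 260 CPM in VIP interneurons, a ratio of 3.29 (2.90 to 3.75). The ratio was 2.52 for Gria4 (2.34 to 2.73) and 2.21 for Gria1 (2.00 to 2.45), and their library ranges did not overlap.

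Shisa9 went the opposite way, with 126 CPM in parvalbumin and 363 CPM in VIP interneurons (ratio 0.35, 0.30 to 0.40, in each library 0.35). Between parvalbumin and VIP interneurons 4 of 10 members were higher (Gria1, Gria3, Gria4 and Cacng8), where 9.41% of 9550 genes were, and 2 were lower (Cnih2 and Shisa9), where 7.3% were.

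In single nuclei with at least 20 UMIs of the 4 genes, the Gria2 share was higher in excitatory than in inhibitory neurons. This filter kept 4479 of 7750 excitatory and 726 of 2866 inhibitory nuclei. It favours deep nuclei and nuclei with a high summed level of the 4 genes, which is the denominator of the share. The median Gria2 share was 42.3% in excitatory nuclei (quartiles 34.1% and 50%) and 28.0% in inhibitory nuclei (20.8% and 36.9%). A share under 25% was found in 6.59% of excitatory and 37.7% of inhibitory nuclei. Parvalbumin and somatostatin nuclei made up 349 and 237 of the 726 inhibitory nuclei kept, but 866 and 830 of the 2866 before the filter. The pooled share of all inhibitory nuclei was 34.8%. The class medians thus depend on which nuclei passed, and are not separate support for the pooled difference. The subclasses ran from a median of 25.7% in 349 parvalbumin nuclei and 25.9% in 237 somatostatin nuclei to 50% in 452 nuclei of layer 5 extratelencephalic neurons and 54.5% in 95 nuclei of layer 6b. Layer 4/5 and claustrum neurons changed places, with medians of 34.5% and 35.4% against pooled shares of 36.3% and 35.5%. The quartile ranges of parvalbumin and layer 5 extratelencephalic nuclei did not overlap. VIP interneurons had too few nuclei of that depth.

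**Figure D4:**
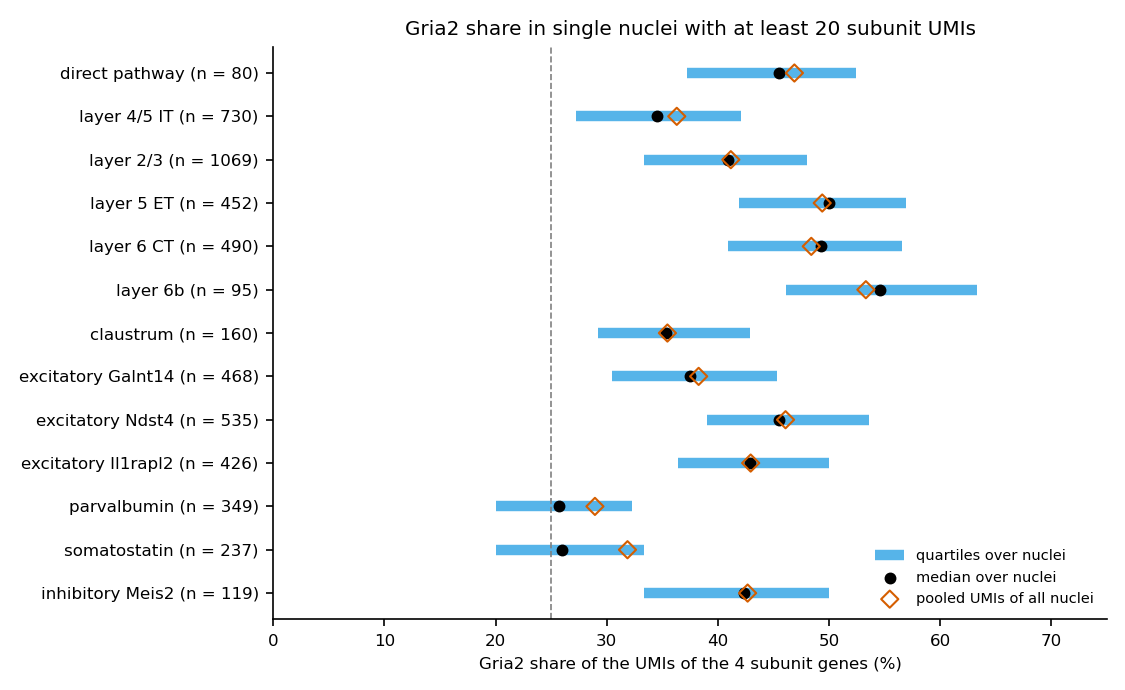
Gria2 share of the UMIs of the 4 subunit genes in single nuclei with at least 20 such UMIs, in percent, by neuronal group with n nuclei. Black points are medians, blue bars the quartiles, diamonds the share in the pooled UMIs of all nuclei, and the dashed line marks 25%. Parvalbumin and somatostatin nuclei have medians of 25.7% and 25.9%, and layer 6b has 54.5%.

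Between the upper excitatory layers, Gria4 and Cnih3 were the members higher in layer 4/5 than in layer 2/3. In layer 4/5 intratelencephalic neurons (1361 nuclei), Gria4 had 1773 and 1892 CPM, and in layer 2/3 neurons (1562 nuclei) it had 837 and 843 CPM, a ratio of 2.18 (2.12 to 2.25). Cnih3 had 138 and 133 CPM in layer 4/5 and 23.3 and 21.9 CPM in layer 2/3, a ratio of 6.00 (5.10 to 7.10). Neither gene's library ranges overlapped between the layers.

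Gria3, Cacng3 and Cacng8 were lower in layer 4/5. Gria3 had 616 and 681 CPM there and 1544 and 1628 CPM in layer 2/3 (ratio 0.41, 0.39 to 0.42). Cacng3 had 127 and 142 CPM in layer 4/5 and 302 and 325 CPM in layer 2/3 (ratio 0.43, 0.40 to 0.46), and layer 2/3 was its highest subclass. Between these layers 2 of 10 members were higher, where 5.5% of 12426 genes were, and 3 were lower, where 5.39% were. The Gria2 share was 36.3% in layer 4/5 and 41.2% in layer 2/3, a difference of −4.86 points (−5.60 to −4.13).

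Gria4 had the widest range of the subunits over the 19 neuronal groups, with 2636 and 2578 CPM in claustrum neurons and 281 and 365 CPM in layer 5 extratelencephalic neurons, which project out of the forebrain. After claustrum came parvalbumin interneurons (1966 CPM), then layer 4/5 (1833 CPM) and layer 5/6 near-projecting neurons (1727 CPM). In layer 5 extratelencephalic neurons Gria4 was 5.4% of the subunit UMIs, and in claustrum neurons 44.1%.

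Layer 5 extratelencephalic neurons instead had the highest Gria2 (2972 and 2872 CPM) and 1824 and 1988 CPM of Gria3, which did not differ from the top group of Gria3, an unnamed excitatory sub-cluster led by Ndst4 (1934 and 1897 CPM). They also led Cacng8 with 94.9 CPM (84.9 to 105.7), not apart from somatostatin interneurons with 82.3 CPM (71.8 to 94.0). Cacng8 made up 35.7% of the 3 TARP genes there, against 9.98% in layer 2/3.

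Gria1 was highest in somatostatin interneurons, with 1428 and 1233 CPM, followed by parvalbumin interneurons with 987 and 1077 CPM. The lowest group was layer 5/6 near-projecting neurons, with 350.5 and 279.8 CPM. Cacng2 was highest in parvalbumin interneurons (95.04 CPM, 84.2 to 106.9), where it held 49.1% of the TARP UMIs. Cacng3 had 31.1 and 29.1 CPM in layer 6b neurons and 64.5 and 28.3 CPM in layer 5/6 near-projecting neurons, which stood last in the pooled order of subclasses and did not differ beyond counting error.

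Shisa9 was highest in indirect pathway striatal projection neurons, which carry the D2 receptor, with 320 and 378 CPM, and in VIP interneurons with 365 and 361 CPM, which did not differ. It was lowest in layer 5/6 near-projecting neurons (24.2 and 22.01 CPM) and next lowest in somatostatin interneurons (36.6 and 60.0 CPM). Cnih2 led in the 3 striatal projection groups, from 115 to 131 CPM, and was lowest in parvalbumin interneurons (31.8 and 55.96 CPM).

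**Figure D5:**
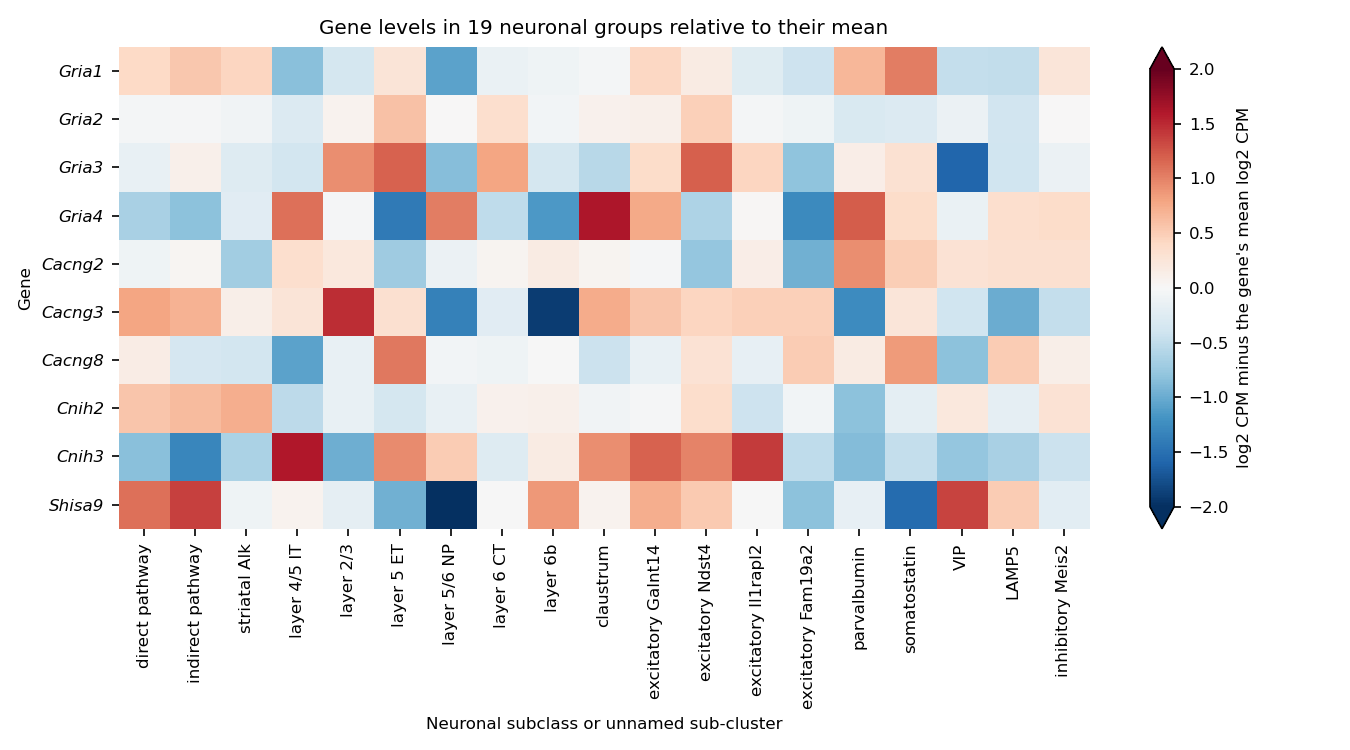
Levels of the 10 genes in 19 neuronal subclasses or unnamed sub-clusters, as log2 CPM minus the gene's mean log2 CPM over the groups, with colours cut at −2 and 2. Red is above and blue below the gene's mean. Gria2 varies least, and Gria4 in claustrum (2599 CPM), Cacng3 in layer 6b (30.2 CPM) and Shisa9 in near-projecting neurons (23.0 CPM) stand out.

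Within subclasses the finer clusters were not uniform. Among somatostatin interneurons, Gria1 had 1925 and 1871 CPM in a cluster led by Unc13c (327 nuclei) and 361 and 464 CPM in a cluster led by Hhip (76 nuclei). The Hhip cluster had 23 nuclei in library 1 and 53 in library 2. Its leading genes also include Nos1, Npy, Tacr1 and Sst, as well as Rarb and Dach1. Rarb and Dach1 were also leading genes of the largest striatal projection cluster, and whether the Hhip nuclei are cortical was not tested. The Gria2 share was 27.2% (26.1% to 28.3%) in the Unc13c cluster and 52.9% (49.1% to 56.8%) in the Hhip cluster. Shisa9 had 28.0 CPM in the Unc13c cluster and 181 CPM in the Hhip cluster. Among parvalbumin interneurons, Gria4 ran from 1617 CPM in a cluster led by Cemip (409 nuclei) to 3003 CPM in one led by Il1rapl2 (76 nuclei), where the Gria2 share was 23.9%.

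One cluster named direct pathway stood apart among the striatal projection neurons. It was led by Stac and included Isl1, Fstl1 and Grik1 among its leading genes (176 nuclei, median 1268.5 UMIs). In the broad clustering, a cluster of 196 nuclei led by Gpr149 also had Stac, Isl1 and Fstl1 as leading genes, with Drd3. That cluster scored 0.547 for striatal projection and 0.349 for inhibitory neurons. Whether the Stac nuclei are ordinary direct pathway neurons was not tested. Gria3 had 113 and 156 CPM in the Stac cluster, against 746 to 843 CPM in the other 3 direct pathway clusters, and Shisa9 had 24.2 and 41.0 CPM, against 329 to 358 CPM. Its Gria2 level was 2904 and 2016 CPM and its Gria2 share 68.2% (65.1% to 71.3%), against 42.7% to 50.8%. These clusters were singled out after their values were seen.

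Among glia, oligodendrocyte precursors had most members above the free RNA limit, astrocytes mainly Gria2, and mature oligodendrocytes Gria4 alone. This order depends partly on the limit itself, since the class that sets a gene's limit cannot pass it. Oligodendrocytes set the limits of Gria1, Gria2 and Gria3, and astrocytes set that of Gria4. In astrocytes, Gria2 had 1896 and 1626 CPM, above their free RNA limit of 548 CPM. Cacng8 and Shisa9 were the only other members above their limits there, and Cacng8 rested on few counts, as 30.6% of 36 TARP UMIs. Gria2 made up 77.7% of the subunit UMIs in astrocytes (74.8% to 80.5%, 849 UMIs). The summed level of the 4 genes was 2145 CPM there, under that of each neuron class above. In nuclei thinned to 1000 UMIs, Gria2 was found in 81.0% of 242 astrocytes and 33.2% of 760 oligodendrocytes, and without thinning in 82.7% and 33.9%.

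Oligodendrocytes had 411 and 559 CPM of Gria2. The limit of 508 CPM is their own upper bound, so they could not pass it, and this does not show whether they express Gria2. The same holds for Gria1 and Gria3. Gria4 (282 and 306 CPM, limit 152 CPM) was the only member above its limit there. Between astrocytes and oligodendrocytes 2 of 8 members with enough UMIs were higher (Gria2 and Shisa9), where 13.4% of 9337 genes were, and 1 was lower (Gria4), where 15.4% were. Gria2 was 3.46 times as high in astrocytes (3.147 to 3.797), and Gria4 0.42 times (0.31 to 0.56).

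Oligodendrocyte precursors, which receive synapses from neurons, had all 4 subunits and Cacng3, Cacng8 and Shisa9 above free RNA. Gria2 had 1560 and 1572 CPM, Gria3 679 and 573 CPM, and Gria4 704 and 645 CPM. Against oligodendrocytes 4 of 8 members were higher (Gria2, Gria3, Gria4 and Shisa9), where 13.5% of 9377 genes were, and none was lower, where 14.1% were. The ratios were 3.25 for Gria2 (2.97 to 3.56), 3.28 for Gria3, 2.27 for Gria4 and 2.84 for Shisa9. Cacng8 had 48.8 CPM in precursors and 6.98 CPM in oligodendrocytes but too few UMIs for the rule.

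Differentiating oligodendrocytes, between these 2 stages, had 1458 and 1930 CPM of Gria2 and a Gria2 share of 66.6% (62.3% to 70.7%), with Gria3, Gria4 and Shisa9 also above free RNA. In precursors the share was 51.9% (49.2% to 54.6%). In microglia the 4 subunits passed the limit over both libraries. Gria2 had 458 CPM in library 1 and 783 CPM in library 2 with a limit of 512 CPM, so that in library 1 it lay below it. Gria1 had 125 and 260 CPM there, Gria3 173 and 323 CPM, and Gria4 149 and 284 CPM. The Gria4 value of library 1 lay below even the limit given above for oligodendrocytes. All 4 were thus lower in library 1, and their pooled levels in microglia lean on library 2. Neuroblasts had the most free RNA, with 663 CPM of Slc17a7, and their 4 subunits and Cacng8 lay above the limit.

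Cholinergic neurons were few (55 nuclei). Gria4 had 1042 CPM there, the highest UMI level of the 4 subunit genes before division by gene length, as also in claustrum, layer 4/5 and parvalbumin neurons. Gria3 had 632 CPM, Gria2 617 CPM and Gria1 289 CPM there, and the Gria2 share was 23.9% (21.1% to 26.9%). Divided by gene length, under the same assumption as above, Gria2 held 46.1% of the subunit signal in these nuclei and was again the highest of the 4.

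Another 33 genes of AMPA receptor assembly, anchoring and modulation were found of a list of 34. Between excitatory and inhibitory neurons 6 of 33 were higher and 7 lower, beside 9.74% and 12.5% of all genes. The scaffold gene Grip1, whose product binds the tails of GluA2 and GluA3, had 217 CPM in excitatory and 1582 CPM in inhibitory neurons (ratio 0.14, 0.13 to 0.14). Shisa6, a relative of Shisa9, had 43.1 CPM in excitatory and 159 CPM in inhibitory neurons. Cacng4, Cacng5, Cacng7, Shisa8 and Grip2 were also lower. The higher genes were the synaptic scaffold gene Dlg1 (ratio 3.17), the pentraxin genes Nptx1 (2.25), Nptx2 (1.73) and Nptxr (1.64), whose products cluster receptors from outside, Gsg1l (2.21) and Brinp1 (2.16).

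Between striatal projection and excitatory neurons 6 of these 33 genes were higher and 5 lower, beside 9.29% and 13.4% of all genes. Cacng4, another TARP gene, had 61.6 and 63.1 CPM in striatal projection neurons and 5.41 and 9.08 CPM in excitatory neurons, a ratio of 8.57 (7.17 to 10.23). The anchor gene Akap5 had a ratio of 3.52, Shisa8 3.77, Cacng5 2.48, Syndig1 2.17 and Gsg1l 1.92. Nptx1, Nptxr, Olfm1, Olfm2 and Grip2 were lower. In oligodendrocyte precursors, Cacng4 had 469 and 396 CPM, against 4.72 and 13.03 CPM in oligodendrocytes (ratio 48.3, 31.7 to 76.5).

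The levels over 25 groups (19 neuronal groups and other classes) gave the genes whose pattern was most like each subunit, by Pearson correlation of log2(CPM + 10) among 9149 genes. These groups share 2 libraries and their free RNA. For Gria1 they were Rbfox1 (0.91), Gm17276 (0.90) and B830012L14Rik (0.90), and for Gria2 Map2 (0.87), Ptpn12 (0.85) and Dok6 (0.84). For Gria3 they were Adss (0.87), Ccdc30 (0.87) and Dok6 (0.83). Gria4 was least matched, by Prmt7 (0.76), Sergef (0.75) and its fellow member Cacng2 (0.75). Among members the highest correlation was that of Gria1 with Cacng2 (0.77) and the lowest that of Gria4 with Cnih2 (−0.31).

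Library 2 over library 1 ran from 0.88 to 1.51 with a median of 1.07 over 29 values with enough UMIs, each 1 gene in 1 of the 3 large neuron classes. The highest was Cnih2 in inhibitory neurons, with 79.6 CPM in library 2 and 52.6 CPM in library 1. Gaps were wider in some other groups: the ratio ran from 1.71 to 2.08 for the 4 subunit genes in microglia, and was 2.51 for Cnih2 in oligodendrocytes (1.901 to 3.34) and 2.44 for Gria1 in the unnamed cluster led by Ntng1 (1.61 to 3.78). Since the numbers are not tied to METH or Control, these ratios have no direction of treatment.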

How the data were processed

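Single-nucleus RNA of the prefrontal cortex was measured in 2 libraries, METH and Control, with nuclei from an iodixanol gradient and 10x 3′ chemistry per the labels' protocols. The authors deposited raw UMI counts, whole numbers, in 1 matrix of 31040 genes and 20766 barcodes. Cell Ranger 1.3.0, Seurat 3.1.4 and mm10 stand in the submitters' processing notes, while the matrix header names software version 3.1.0. The gene annotation and the counting of intronic reads are not given in the sources used here.

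A minimum of 500 genes was set, and Scrublet in Scanpy 1.11.5 removed 889 doublets from library 1 and 660 from library 2, leaving 18002 nuclei. Counts were scaled to 10000 per nucleus and log-transformed. From 3000 variable genes, without the AMPA receptor genes, 50 principal components, 20 neighbours and Leiden clusters at resolution 1 were made (leidenalg 0.10.2, scikit-learn 1.9.0), and unnamed clusters were clustered again at resolution 0.5. Clusters were named from marker lists, with at least 3 detected markers and a score 1.5 times that of the next list, and neurons were clustered again for subclasses.

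UMIs were summed per group and divided by its total (CPM), with exact Poisson, conditional and Clopper-Pearson 95% intervals (SciPy 1.17.1). The interval treats UMIs as independent molecules. The free RNA limit of a gene is the class's level of Slc17a7 times the smallest value, over large classes, of the gene's upper bound divided by Slc17a7. In excitatory neurons myelin genes stood in for Slc17a7. For a gene made in every class it counts expression as free RNA. The class that gives the smallest value for a gene cannot lie above that gene's limit. The rule for calls was run on simulated Poisson counts without differences between libraries or free RNA. That run cannot show how the rule behaves where these are present, as in the data. The members and lists were chosen with earlier results of these data known, and the details of cluster naming and of free RNA were set after the data were seen. Named genes were all members, other listed genes past the 1.5-fold rule, and the 3 genes most like each subunit. Alternatives changed the gene minimum, doublets, resolution, variable genes, averaging, free RNA, library, depth, fold and UMI minimum.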

Additional observations from a re-analysis of the deposited data

How the results depend on the processing

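The Gria2 share difference between excitatory and inhibitory neurons kept its direction under each alternative run, while 3 ratios near 1 changed sign. The log2 ratio of Cnih2 in excitatory over inhibitory neurons was 0.077, and -0.012 in library 2 alone. That of Cacng3 in striatal projection over excitatory neurons was 0.10, and -0.0061 with free RNA subtracted. That of Cacng8 in striatal projection over excitatory neurons was -0.014, and above 0 under 5 alternatives, up to 0.23 with a minimum of 1000 genes. With a 2-fold rule, 1 member was higher (Cnih3) and 0 lower in excitatory than in inhibitory neurons, where 1.5-fold gave 2 and 1, beside 5.23% and 5.86% of all genes. With that rule 0 members were higher and 1 lower (Cnih3) in striatal projection than in excitatory neurons, where 1.5-fold gave 2 and 3, beside 4.77% and 8.13% of all genes. The count lower in excitatory than in inhibitory neurons was 2 with a minimum of 200 genes and 2 in library 1 alone, both times with Cacng2 added to Gria1, and 0 with the mean of per-nucleus CPM. The shares of all genes lower were 12.6%, 17.9% and 11.8% under these settings, in that order. With a minimum of 200 genes the naming of classes changed too. Cholinergic neurons were 1485 nuclei instead of 55, inhibitory neurons 2453 instead of 2866 and striatal projection neurons 1037 instead of 1400. No neuroblast class was named. Values under that setting therefore compare other sets of nuclei. The count higher in striatal projection than in excitatory neurons was 1 with doublets kept, 1 with free RNA subtracted and 1 after thinning to 1000 UMIs, each time without Cnih2. The shares of all genes higher were 8.53%, 7.91% and 8.65% under these settings, in that order. Subtracting free RNA brought the share of all genes higher in excitatory than in inhibitory neurons to 27% and the share lower in striatal projection than in excitatory neurons to 32.7%, where the unsubtracted values gave 9.74% and 13.4%. The Gria2 share in excitatory minus inhibitory neurons, 8.44 points, was 9.83 with a minimum of 200 genes, 7.30 with 1000 genes, 7.68 with per-nucleus means, 9.61 with free RNA subtracted, 9.75 in library 1, 7.25 in library 2, 7.91 after thinning and 7.39 per gene length. Excitatory neurons were the highest class for 1 member with a minimum of 1000 genes, where 283 nuclei were named endothelial and led Gria2 and Gria3; for 4 with free RNA subtracted, Cacng3 being added; for 2 after thinning to 1000 UMIs, where Cnih3 was highest in neuroblasts; and for 3 under the other settings. The cause was not tested. Of 220 other values, 163 moved by less than their interval and 57 by more. No paired analysis was possible because each group has 1 library and barcodes are not tied to groups. In glia, shallow nuclei limit what can be detected above free RNA.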
